A study of Xenopus laevis with 6 samples.

Results

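The outer cut through the hind limb bud of Xenopus laevis, the African clawed frog, separated a distal segment (the limb tip) from a medial segment, and the differences between these segments are described here. All gene IDs that passed a filter on low counts were compared, 27007 of 51061 in all, between the 2 distal and the 2 medial RNA sequencing libraries. Tadpoles were wild type and untreated, and were taken at stage 51. Each library came from a pool of 30 hind limb segments, and another segment next to the body, called proximal, was sampled in the same way with 2 pools. The labels call the pools samples 1 and 2 of a segment, with sample 1 titled Black and sample 2 Red in each segment, and do not say whether they came from separate clutches or days, so p-values measure only the spread between these pools.

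A limb bud is a core of mesenchyme inside an ectodermal jacket, with a thickened ectoderm at its tip that secretes FGF proteins and keeps the mesenchyme below it growing. The bud is patterned from the body outwards: transcription factors of the Meis and Irx families mark the part near the body, and the last genes of the HoxA and HoxD clusters mark the future autopod, the hand or foot. Cells that leave the tip condense into cartilage, while muscle precursors, vessels, nerves and blood enter from the body. Xenopus laevis is an allotetraploid whose genes often exist as a pair of copies, written with the suffixes L and S.

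Levels are CPM, counts scaled to the library size with TMM factors, and pairs of values are given in the order pool 1, pool 2. Fold changes are log2 values of distal over medial with their standard error from edgeR's quasi-likelihood test, so positive values mean higher in the tip. A gene is called when its p-value adjusted over all 27007 gene IDs by the Benjamini-Hochberg method is under 0.05. Assigned fragments numbered 28485939 and 28471843 in the medial pools and 23079754 and 14111643 in the distal pools. The floor of 3 counts lay between 0.109 and 0.203 CPM in these 4 libraries, and floors and intervals cover counting error only. Markers of hind limb mesenchyme were found in both segments, though not all at a clear level. pitx1.L, the hind limb selector gene, was at 333 and 363 CPM in medial and 202 and 196 CPM in distal. None of the 17 marker gene IDs tested was at 0. Among them meis2.S held only 2 and 3 counts in the distal pools, at or below the floor. In bulk tissue, fewer cells of a type and less RNA per cell cannot be told apart.

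The pools of a segment were not alike for the genes that differed most across the cut. Among the 109 genes called higher in distal with a fitted change of 8-fold or more, medial pool 1 was above medial pool 2 in 84.4%, with a median ratio of 2.02, against 52.5% of all genes tested outside the blood genes. Among the 424 genes called lower by that much outside the blood genes, distal pool 1 was above distal pool 2 in 58.3%, with a summed level of 537 against 374 CPM. Blood genes were summed at 67833 and 79523 CPM in the medial pools and at 3435 and 1878 CPM in the distal pools. A small set of fast muscle genes also stood apart in distal pool 1: mylpf.L, a myosin light chain, was at 0.183 and 0.145 CPM in medial and 4.59 and 0.405 CPM in distal. Its copy mylpf.S was at 0.44 and 0.653 CPM in medial and 5.22 and 0.338 CPM in distal, and tnnc2.L, a fast muscle troponin, was at 0.0734 and 0.145 CPM in medial and 1.79 and 0.0675 CPM in distal. None of these was called, and without distal pool 1 the log2 fold changes of mylpf.S and tnnc2.L turned from 2.48 and 3.23 to -0.69 and -0.65. The part of such differences between pools in the results below was not tested, and values without a pool are given where they move a result. Such a value rests on the other pool of that segment alone, which for low genes holds only a few counts.

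Of the genes tested, 6753 were called, which is 25% of them. They were split into 3267 higher in distal (12.1%) and 3486 lower (12.9%), and the median log2 fold change over all genes was 0.0090. Fewer genes were called when a distal pool was left out than when a medial or proximal pool was. A fit without a distal pool takes the spread between pools from the other segments, so it cannot show on which pools the calls rest. The same holds for the list counts and adjusted p-values below with a distal pool left out, since calls dropped over all genes too. Changes of 2-fold or more were counted in 1111 genes called higher and 1721 called lower, with genes that had no count in the lower segment taken at their lower bound. Changes of 8-fold or more numbered 108 and 426. A test against a fold of 1.5 called 740 genes higher and 1471 lower, so the share of higher calls moved from 48.4% to 33.5%. Gene names were available only for IDs in the authors' deposited table of significant comparisons. Of the 6912 named IDs tested, 76.8% were called, 35.6% higher and 41.1% lower, with a median of -0.19. Without the 67 blood IDs these shares were 76.6%, 36% and 40.6%. The counts of the lists below are to be read against those shares. A list holds only its named members, so its counts are not shares of a whole pathway or cell type. IDs without a name accounted for 804 of the higher and 644 of the lower calls, of which 236 and 207 were 2-fold or more. Those called at 10 CPM or more with pools that did not overlap lay between -0.59 and 0.63. An ID lacks a name where the authors' table holds no comparison for it, so this narrow range follows partly from the naming.

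**Figure D1:**
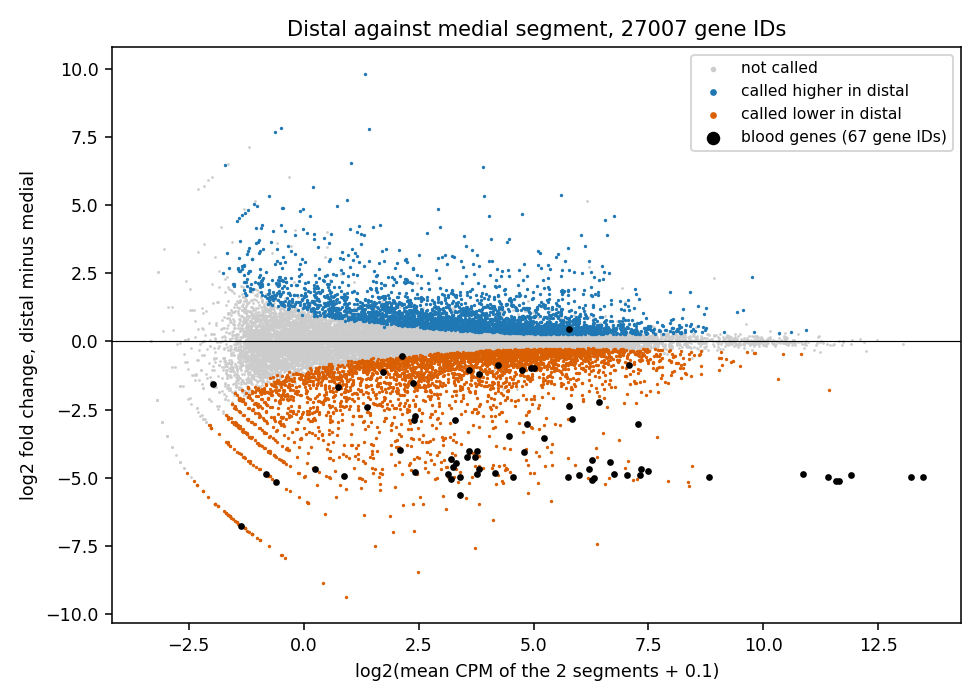
Mean level (x axis, log2 of CPM + 0.1) against log2 fold change (y axis, distal minus medial) for 27007 gene IDs, coloured by call, with the 67 blood gene IDs in black. Called falls of 8-fold or more outnumber called rises of that size, and most blood genes lie far below 0 (median log2 fold change -4.45).

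The largest changes are given for named genes with a mean of 10 CPM or more in the higher segment, and many of the rises were transcription factors. hoxa13.L, a HoxA gene that specifies the autopod, was at 11.8 and 5.23 CPM in medial and 211 and 202 CPM in distal, a log2 fold change of 4.59 ± 0.39 (adjusted p = 0.0015). Its copy hoxa13.S was at 3.15 and 0.871 CPM in medial and 52.6 and 50.5 CPM in distal, a log2 fold change of 4.68 ± 0.51 (adjusted p = 0.0044). The homeobox gene evx1.L, the neighbour of the HoxA cluster, was at 1.25 and 0.181 CPM in medial and 29.7 and 29 CPM in distal, a log2 fold change of 5.36 ± 0.56 (adjusted p = 0.0024). In all of these the medial pools were low and apart from each other. That both distal pools lay above both medial pools was a condition for naming a gene here. In the coordinates of the count table, whose genome build is not given in the sources used here, hoxa13.L lay at 6L:39676799-39679727 and evx1.L at 6L:39747274-39752153. The S copy evx1.S rose as well, with 1.87 and 0.69 CPM against 30.6 and 31.8 CPM and a log2 fold change of 4.604 ± 0.46 (adjusted p = 0.0014).

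The forkhead gene foxf2.S had the largest fitted rise of these, at 0.66 and 0.0363 CPM in medial and 30.1 and 28.8 CPM in distal, a log2 fold change of 6.39 ± 0.65 (adjusted p = 0.0021). The other copy foxf2.L was at 0.77 and 0.218 CPM in medial and 14.7 and 14.3 CPM in distal, a log2 fold change of 4.87 ± 0.33 (adjusted p = 2.8e-06). Their sizes depended on the medial pool used: foxf2.S came to 9.46 without medial pool 1, which leaves a single medial count, and 5.47 without medial pool 2, and foxf2.L to 6.03 and 4.23. The same held for evx1.L (7.298 and 4.55) and hoxa13.S (5.88 and 4.03). Without medial pool 1, evx1.S came to 5.49, hoxa13.L to 5.302 and tfap2b.S to 4.67.

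Both copies of tfap2b, an AP-2 transcription factor of ectoderm and limb mesenchyme, were among the largest rises. tfap2b.L was at 12.7 and 3.56 CPM in medial and 177 and 180.0 CPM in distal, a log2 fold change of 4.46 ± 0.71 (adjusted p = 0.026). tfap2b.S was at 11.6 and 4.83 CPM in medial and 120.2 and 125 CPM in distal, a log2 fold change of 3.902 ± 0.41 (adjusted p = 0.0037). sall1.L, a zinc finger factor required for digits in mammals, was at 15.8 and 8.17 CPM in medial and 179 and 184 CPM in distal, a log2 fold change of 3.92 ± 0.52 (adjusted p = 0.013). The distal pools differed little from each other in these genes, and the medial pools differed by a factor of 1.94 to 3.57. The calls of tfap2b.L and sall1.L ended when single libraries were left out. For tfap2b.L the adjusted p was 0.13 and 0.12 without distal pool 1 or 2 and 0.066 and 0.063 without proximal pool 1 or 2, and its log2 fold change was 5.65 and 3.82 without medial pool 1 or 2. For sall1.L it was 0.076, 0.0796 and 0.062 without distal pool 1, distal pool 2 and medial pool 2.

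The remaining large rises were genes of a matrix protein, an ion channel and an enzyme. thbs4.S, a thrombospondin of the matrix, was at 0.917 and 0.653 CPM in medial and 14.8 and 14.3 CPM in distal, a log2 fold change of 4.21 ± 0.22 (adjusted p = 2.3e-07). asic4.L, of the acid-sensing ion channel family, was at 0.954 and 0.544 CPM in medial and 11.3 and 12.6 CPM in distal, a log2 fold change of 3.98 ± 0.29 (adjusted p = 2.6e-06). Neither fold moved by a factor over 1.5 when a library was left out. st8sia6.S, a sialyltransferase, was at 3.74 and 0.798 CPM in medial and 97.7 and 89.6 CPM in distal, a log2 fold change of 5.37 ± 0.82 (adjusted p = 0.024), with medial pool 1 well above medial pool 2. Its call ended without any one of the 4 libraries compared: the adjusted p was 0.057 and 0.081 without a medial pool (log2 fold changes 6.87 and 4.65) and 0.15 and 0.13 without a distal pool.

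**Figure D2:**
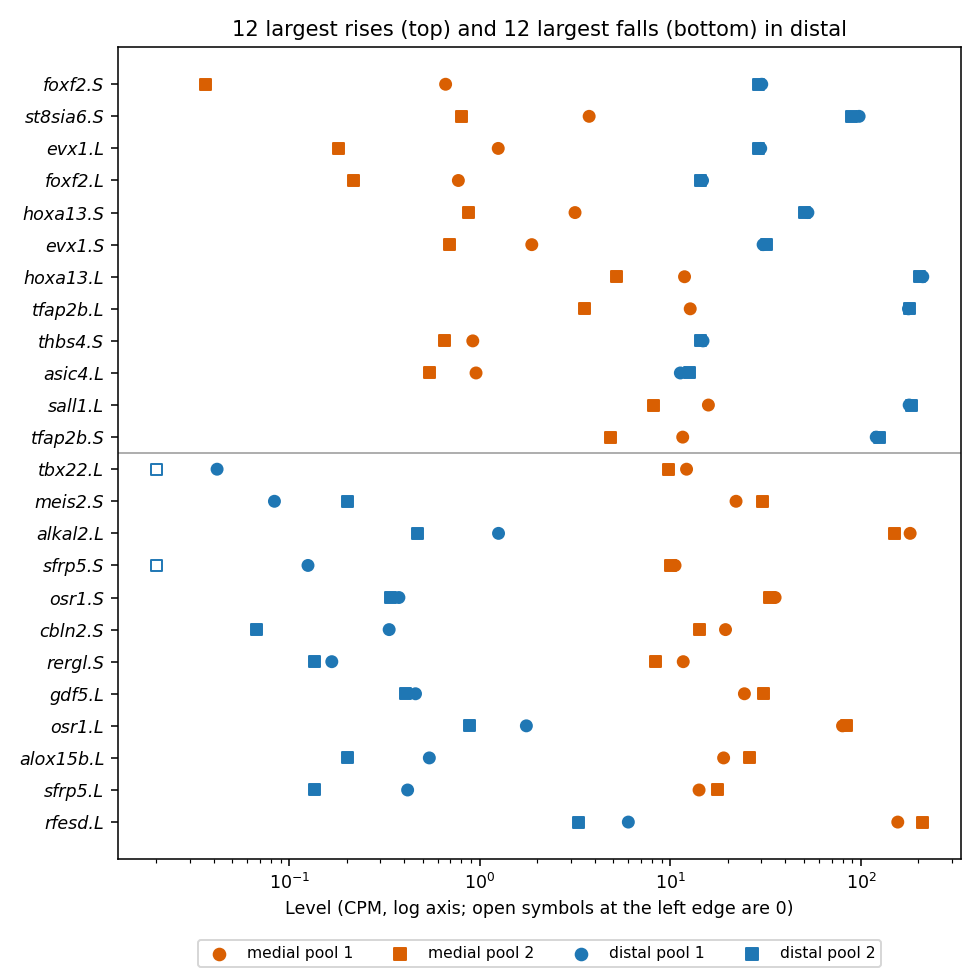
Level in each pool (x axis, CPM on a log axis) of the 12 genes with the largest rise and the 12 with the largest fall in distal, blood genes left out; circles are pool 1, squares pool 2, orange medial and blue distal, and open symbols at the left edge are 0. The medial pools of the rising genes lie apart with pool 1 higher, and the distal pools of the falling genes lie near or below 1 CPM except in rfesd.L.

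The largest falls came close to a loss of the transcript at the tip. tbx22.L, a T-box transcription factor, was at 12.1 and 9.76 CPM in medial and 0.0417 and 0 CPM in distal, and the ratio of its pooled counts, medial over distal, was 424 (95% counting interval 75.9 to 16791). meis2.S, one of the homeobox factors that mark the proximal limb, was at 22.1 and 30.2 CPM in medial and 0.0834 and 0.203 CPM in distal, a ratio of 203 (95% counting interval 86.8 to 626). sfrp5.S, a secreted inhibitor of Wnt ligands, was at 10.6 and 10.1 CPM in medial and 0.125 and 0 CPM in distal, a ratio of 133 (95% counting interval 45.4 to 648). These rest on at most 3 counts in any distal library, so their fitted fold changes are not given. The edgeR adjusted p was 2.1e-07 for tbx22.L, 2.1e-07 for meis2.S and 2.1e-07 for sfrp5.S.

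alkal2.L, a ligand of the receptor kinases ALK and LTK, had the largest fall among the named genes at 10 CPM or more with more than 3 counts in a distal library, from 181 and 151 CPM to 1.25 and 0.473 CPM, a log2 fold change of -7.45 ± 0.23 (adjusted p = 5.1e-08). Both copies of osr1, a zinc finger factor of connective tissue mesenchyme, fell: osr1.S was at 35.4 and 33 CPM in medial and 0.375 and 0.338 CPM in distal, a log2 fold change of -6.55 ± 0.18 (adjusted p = 4.3e-09). osr1.L was at 80 and 84.4 CPM in medial and 1.75 and 0.878 CPM in distal, a log2 fold change of -5.87 ± 0.18 (adjusted p = 1.2e-08). For both copies the medial pools lay close together. gdf5.L, the BMP-family ligand of forming joints, was at 24.4 and 30.9 CPM in medial and 0.459 and 0.405 CPM in distal, a log2 fold change of -5.96 ± 0.21 (adjusted p = 2.1e-08). sfrp5.L was at 14.1 and 17.7 CPM in medial and 0.417 and 0.135 CPM in distal, a log2 fold change of -5.66 ± 0.28 (adjusted p = 2.3e-07).

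Further large falls were cbln2.S, of a family of secreted synaptic proteins, at 19.4 and 14.1 CPM in medial and 0.334 and 0.0675 CPM in distal, a log2 fold change of -6.15 ± 0.34 (adjusted p = 7.5e-07), and rergl.S, a small GTPase of the Ras superfamily, at 11.7 and 8.38 CPM in medial and 0.167 and 0.135 CPM in distal, a log2 fold change of -5.97 ± 0.35 (adjusted p = 5.1e-07). alox15b.L, a lipoxygenase, was at 19 and 26.1 CPM in medial and 0.542 and 0.203 CPM in distal, a log2 fold change of -5.76 ± 0.29 (adjusted p = 3.5e-07). rfesd.L, which encodes a protein with a Rieske iron-sulfur domain, was at 156 and 209 CPM in medial and 6.01 and 3.31 CPM in distal, a log2 fold change of -5.23 ± 0.27 (adjusted p = 2e-05). In alox15b.L, rfesd.L, gdf5.L, osr1.L and sfrp5.L medial pool 2 and distal pool 1 were the higher of their segment. The globins show this order as well, and a link between them was not tested. Without distal pool 1 the falls were larger, with log2 fold changes of -8.44 for alkal2.L, -6.54 for osr1.L, -6.82 for sfrp5.L, -7.85 for cbln2.S and -6.76 for alox15b.L.

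Among the posterior Hox genes, which specify limb segments, the largest rises were those of the last genes of the clusters and their evx neighbours. Of 19 gene IDs, 12 were called higher and 2 lower, with a median of 0.85 (1 lower without medial pool 2 or either distal pool). Besides hoxa13 and evx1, hoxd13.L was at 12.1 and 10.2 CPM in medial and 138 and 118 CPM in distal, a log2 fold change of 3.52 ± 0.26 (adjusted p = 0.00029). evx2.S, the neighbour of the HoxD cluster, had no count in either medial pool and 5.34 and 4.39 CPM in the distal pools, at least 44.2-fold higher (adjusted p = 1.9e-06). hoxa11.L, a marker of the zeugopod (the lower leg), was at 109.9 and 123 CPM in medial and 101 and 92.9 CPM in distal and was not called (adjusted p = 0.086). Its log2 fold change was -0.27, with -0.33 and -0.22 without distal pool 1 or 2, and whether it passed depended on the library left out. hoxa10.S was not called either (53.5 and 60.5 CPM against 50.6 and 47.1 CPM, adjusted p = 0.18).

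hoxd9.L, an earlier gene of the cluster, fell across the cut, with 37.8 and 44.7 CPM against 23.1 and 27.2 CPM and a log2 fold change of -0.72 ± 0.12 (adjusted p = 0.00091). hoxd9.S was at 16.5 and 19.1 CPM against 12.7 and 14.5 CPM (adjusted p = 0.035), a call that ended without medial pool 2 (0.17), distal pool 1 (0.3) or distal pool 2 (0.069). Among 27 IDs of the other Hox genes 7 were higher and 9 lower, or 4 lower without distal pool 1. hoxa7.L rose (7.63 and 6.13 CPM against 20.2 and 23.6 CPM, a log2 fold change of 1.66 ± 0.15 (adjusted p = 9.7e-06)). hoxd3.S rose too (11.4 and 9.25 CPM against 19.7 and 22.2 CPM, a log2 fold change of 1.01 ± 0.13 (adjusted p = 0.000203)), although its exons overlap another gene ID and its counts are uncertain. hoxb3.L, with at most 3 counts in a distal library, was at 1.5 and 1.89 CPM in medial and 0.125 and 0.203 CPM in distal, a ratio of medial over distal of 11 (95% counting interval 4.85 to 30.6) (adjusted p = 8.7e-05).

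Most genes that mark the proximal limb fell across the outer cut. Of 23 IDs, 17 were lower and 4 higher, with a median of -1.07. shox2.S, a homeobox gene needed for the upper limb in mice, fell from 80.3 and 75.5 CPM to 5.22 and 3.85 CPM, a log2 fold change of -4.07 ± 0.13 (adjusted p = 1.2e-08). irx3.S fell from 11.5 and 12.1 CPM to 1.92 and 1.82 CPM, a log2 fold change of -2.65 ± 0.14 (adjusted p = 2.3e-07). irx5.L was at 5.25 and 5.99 CPM in medial and 0 and 0.0675 CPM in distal, a ratio of 218 (95% counting interval 38.8 to 8633) (adjusted p = 6.3e-07). meis2.L was at 59 and 61.4 CPM in medial and 26.9 and 30.9 CPM in distal, a log2 fold change of -1.07 ± 0.10 (adjusted p = 1.9e-05), a smaller change than in its copy meis2.S. The rises on this list were the copies of emx2 and pknox2: emx2.L was at 0.55 and 0.218 CPM in medial and 3.67 and 3.78 CPM in distal, a log2 fold change of 3.26 ± 0.30 (adjusted p = 1.3e-05) (4.06 without medial pool 1), and pknox2.S at 5.61 and 6.42 CPM in medial and 37.7 and 36.9 CPM in distal, a log2 fold change of 2.63 ± 0.14 (adjusted p = 3.1e-07).

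Transcription factors of limb mesenchyme changed both ways, 35 of 71 IDs higher and 28 lower. lhx2.L, a LIM homeobox factor of the subridge mesenchyme, was at 24 and 21.4 CPM in medial and 156 and 155 CPM in distal, a log2 fold change of 2.77 ± 0.16 (adjusted p = 4.3e-06). lhx2.S was at 18 and 16.5 CPM in medial and 95.8 and 106 CPM in distal, a log2 fold change of 2.55 ± 0.12 (adjusted p = 1.5e-07). msx2.S, a target of BMP signalling, was at 40.4 and 34.4 CPM in medial and 132 and 131 CPM in distal, a log2 fold change of 1.82 ± 0.10 (adjusted p = 4.1e-07). All of these had tight pools and distal values well above medial. prrx1.L, a factor of early limb mesenchyme, fell (343 and 374 CPM against 172 and 169.9 CPM, a log2 fold change of -1.07 ± 0.10 (adjusted p = 1.2e-05)). osr2.S also fell (31.7 and 27.7 CPM against 2.88 and 2.36 CPM, a log2 fold change of -3.48 ± 0.14 (adjusted p = 5.4e-08)). barx1.L was at 1.39 and 2.43 CPM in medial and 0.0417 and 0 CPM in distal, a ratio of medial over distal of 74.3 (95% counting interval 13 to 2961) (adjusted p = 0.00012).

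Among 21 forkhead IDs 8 were higher and 9 lower, beside 35.6% and 41.1% of all named IDs. Next to foxf2, foxl1.L had no count in the medial pools and 1.13 and 1.08 CPM in the distal pools, at least 10-fold higher (adjusted p = 0.000196). foxd3.L, a gene of neural crest derivatives, was at 3.37 and 1.81 CPM in medial and 0.167 and 0.0675 CPM in distal, a log2 fold change of -4.28 ± 0.54 (adjusted p = 0.00018) (-5.15 without distal pool 1).

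Of 37 IDs of the FGF pathway, 24 were higher and 8 lower, with a median of 0.83. fgf8.L, the ridge ligand, was at 4.81 and 2.9 CPM in medial and 27.7 and 32.2 CPM in distal, a log2 fold change of 2.95 ± 0.21 (adjusted p = 4.8e-06). fgf8.S was at 2.75 and 0.98 CPM in medial and 21.2 and 21.2 CPM in distal, a log2 fold change of 3.504 ± 0.36 (adjusted p = 0.000497) (4.43 without medial pool 1), but its exons overlap another gene ID. fgf9.S, another FGF ligand, was at 2.27 and 1.02 CPM in medial and 13.6 and 16.3 CPM in distal, a log2 fold change of 3.18 ± 0.28 (adjusted p = 2.8e-05) (3.86 without medial pool 1). The mesenchymal ligand fgf10.S rose (9.83 and 7.84 CPM against 27.6 and 28.8 CPM, a log2 fold change of 1.67 ± 0.19 (adjusted p = 0.00016)). fgf10.L changed in the same direction (16.5 and 14 CPM against 34.6 and 33.6 CPM, a log2 fold change of 1.16 ± 0.14 (adjusted p = 0.00017)).

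Feedback inhibitors of FGF signalling include the Sprouty genes, of which spry1.L was at 25 and 20.1 CPM in medial and 83.4 and 85.4 CPM in distal, a log2 fold change of 1.904 ± 0.13 (adjusted p = 2.1e-06). spry4.S was at 23.7 and 20.2 CPM in medial and 73.1 and 81.6 CPM in distal, a log2 fold change of 1.82 ± 0.11 (adjusted p = 9.1e-07). dusp6.L, a phosphatase of ERK, was at 33.5 and 27.4 CPM in medial and 116 and 127 CPM in distal, a log2 fold change of 2.002 ± 0.14 (adjusted p = 4.6e-06). In all 3 genes the distal pools differed little from each other. The receptor fgfr4.L was at 25.5 and 25.9 CPM in medial and 6.68 and 6.08 CPM in distal, a log2 fold change of -2.001 ± 0.11 (adjusted p = 3.2e-07). The ligand fgf7.S was at 1.91 and 1.23 CPM in medial and 0.167 and 0 CPM in distal, a log2 fold change of -3.87 ± 0.59 (adjusted p = 0.00065), with -3.204 without distal pool 2, which had no count. The intracellular family member fgf13.L fell from 3.7 and 3.45 to 1.13 and 0.878 CPM, a log2 fold change of -1.8 ± 0.27 (adjusted p = 0.000498).

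Wnt pathway genes changed both ways, 18 of 58 IDs higher and 27 lower, beside 35.6% and 41.1% of all named IDs. wnt5a.L, the ligand of the growing tip, was at 28.4 and 29.5 CPM in medial and 106 and 109 CPM in distal, a log2 fold change of 1.89 ± 0.09 (adjusted p = 1.4e-07). The receptor fzd10.L was at 19.7 and 11.4 CPM in medial and 80.7 and 82.5 CPM in distal, a log2 fold change of 2.39 ± 0.24 (adjusted p = 0.00078). The secreted inhibitor dkk1 rose in both copies, dkk1.S at 2.49 and 2.32 CPM in medial and 19.8 and 18 CPM in distal, a log2 fold change of 2.97 ± 0.35 (adjusted p = 0.00091). dkk1.L was at 3.23 and 2.54 CPM in medial and 19.7 and 18.6 CPM in distal, a log2 fold change of 2.73 ± 0.29 (adjusted p = 0.00027). In the secreted frizzled-related family of inhibitors, frzb.L was at 70.4 and 76 CPM in medial and 3.55 and 2.43 CPM in distal, a log2 fold change of -4.57 ± 0.15 (adjusted p = 1.2e-08), next to both copies of sfrp5. rspo1.S, a secreted Wnt agonist, was at 1.58 and 1.23 CPM in medial and 0 and 0.0675 CPM in distal, a ratio of 54.5 (95% counting interval 9.49 to 2179) (adjusted p = 0.00016).

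BMP and TGF-beta pathway genes were mostly lower, 30 of 50 IDs against 12 higher, with a median of -0.53. Ligands were on both sides: inhbb.S, an activin subunit, was at 1.32 and 0.835 CPM in medial and 9.35 and 7.02 CPM in distal, a log2 fold change of 2.93 ± 0.26 (adjusted p = 1e-05). In contrast, gdf5.S was at 11.1 and 12.8 CPM in medial and 0.751 and 0.675 CPM in distal, a log2 fold change of -4.04 ± 0.21 (adjusted p = 2e-07). bmp2.S rose (7.48 and 4.86 CPM against 29 and 30.7 CPM, a log2 fold change of 2.27 ± 0.17 (adjusted p = 4.6e-06)), but its exons overlap another gene ID. mstn.1.S, a myostatin gene, was listed at 0.514 and 1.05 CPM in the medial pools and had no count in the distal pools, at least 3.86-fold lower (adjusted p = 0.0018). Among inhibitors, grem1.L, a BMP antagonist that sustains the ridge in mice, rose (46.7 and 43.3 CPM against 78.6 and 73.1 CPM, a log2 fold change of 0.75 ± 0.11 (adjusted p = 0.00037)). bambi.S, a pseudoreceptor, changed in the same direction (16.8 and 15.9 CPM against 36.6 and 35.9 CPM, a log2 fold change of 1.15 ± 0.10 (adjusted p = 9.7e-06)).

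For Hedgehog signalling, 8 of 21 IDs were higher and 7 lower, beside 35.6% and 41.1% of all named IDs. The number higher depended on the library left out. The ligand shh.L, shown because it is the posterior organiser of the limb, was at 13.2 and 17.5 CPM in medial and 47.1 and 39.3 CPM in distal. Both distal pools were above both medial pools, and in 65.2% of all genes tested the pools of these segments did not overlap. The log2 fold change of 1.5 ± 0.41 (adjusted p = 0.066) was not called. It was called in limma-voom (0.00087) and in the fit of 4 libraries (0.00029), but not in the test against a fold of 1.5 (0.24). Without distal pool 1 or 2 it came to 1.36 and 1.61, and whether it passed depended on the library left out. The receptor gene ptch1.L, itself a target of the pathway, rose (95.6 and 89.5 CPM against 149.6 and 139.7 CPM, a log2 fold change of 0.64 ± 0.12 (adjusted p = 0.0024)), as did the inhibitor hhip.S (1.03 and 0.544 CPM against 3.92 and 5.67 CPM, a log2 fold change of 2.58 ± 0.32 (adjusted p = 0.00015)). hhipl2.L, a relative of hhip, rose as well (0.147 and 0.181 CPM against 2.42 and 2.3 CPM, a log2 fold change of 3.81 ± 0.41 (adjusted p = 7.7e-05)). Among the coreceptors, gas1.S fell from 218 and 210 to 106 and 101 CPM (log2 fold change -1.05, adjusted p = 1e-05) and cdon.S from 77.7 and 73.4 to 44.7 and 44.1 CPM (log2 fold change -0.77, adjusted p = 7.7e-05). The coreceptor IDs boc.S (162 and 197 CPM against 166 and 161 CPM, adjusted p = 0.43) and cdon.L (155 and 133 CPM against 122 and 128 CPM, adjusted p = 0.15) were not called. ihh.L, the ligand of growing cartilage, was at 1.83 and 3.16 CPM in medial and 0.167 and 0.135 CPM in distal, a log2 fold change of -3.97 ± 0.48 (adjusted p = 0.00011).

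The retinoic acid genes, 10 of 27 higher and 12 lower, changed in both directions, as did all named IDs (35.6% higher, 41.1% lower). Of the enzymes that break down retinoic acid, cyp26b1.S was at 39.3 and 40.6 CPM in medial and 136 and 124 CPM in distal, a log2 fold change of 1.704 ± 0.10 (adjusted p = 4.1e-07). cyp26c1.L was at 9.61 and 4.5 CPM in medial and 37.3 and 36.9 CPM in distal, a log2 fold change of 2.395 ± 0.40 (adjusted p = 0.014). cyp26c1.S was at 18 and 8.42 CPM in medial and 64.2 and 67.3 CPM in distal, a log2 fold change of 2.31 ± 0.45 (adjusted p = 0.032). Both cyp26c1 calls ended without a distal pool (adjusted p 0.065 and 0.063 for cyp26c1.L, 0.12 and 0.13 for cyp26c1.S without pool 1 and 2), and their log2 fold changes were 3.04 and 2.96 without medial pool 1. The synthesis enzyme aldh1a2.S rose too, from 3.96 and 3.74 to 12.2 and 13.1 CPM, a log2 fold change of 1.71 ± 0.17 (adjusted p = 3.1e-05). stra6.S, a receptor for retinol uptake, was at 0.0734 and 0.0726 CPM in medial and 1.75 and 2.09 CPM in distal, a ratio of distal over medial of 25.8 (95% counting interval 9.66 to 97.2) (adjusted p = 6.6e-05). Falls were seen in a binding protein, a reductase and a receptor gene that retinoic acid induces in other vertebrates: crabp2.L was at 329 and 389 CPM against 121 and 128 CPM (a log2 fold change of -1.53 ± 0.11 (adjusted p = 2.2e-06)), dhrs3.L at 25.3 and 25.9 CPM against 8.22 and 6.89 CPM (a log2 fold change of -1.75 ± 0.12 (adjusted p = 1.5e-06)) and rarb.L at 1.36 and 1.45 CPM against 0.209 and 0.338 CPM (a log2 fold change of -2.41 ± 0.37 (adjusted p = 0.00067)). The copy dhrs3.S had a log2 fold change of -1.71 ± 0.11 (adjusted p = 1.1e-06).

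Notch pathway genes were more often higher, 15 of 28 IDs against 5 lower. The target hes1.L was at 19.3 and 20 CPM in medial and 112 and 114 CPM in distal, a log2 fold change of 2.52 ± 0.10 (adjusted p = 5.4e-08). The ligand jag1.L (13.2 and 11.4 CPM against 40.6 and 37 CPM, a log2 fold change of 1.66 ± 0.11 (adjusted p = 1.4e-06)) and the receptor notch1.L (35.1 and 27.6 CPM against 103 and 105 CPM, a log2 fold change of 1.73 ± 0.11 (adjusted p = 1.2e-06)) rose as well. The number of falls was 3, 0 and 2 without medial pool 1, distal pool 1 and distal pool 2. Of these, hey2.L had a log2 fold change of -2.02 (adjusted p = 0.0196, and 0.054 without distal pool 1, 0.12 without distal pool 2 and 0.066 without medial pool 2). The ligand dll1.S had -0.74 (adjusted p = 0.0033, and 0.062 without distal pool 1).

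**Figure D3:**
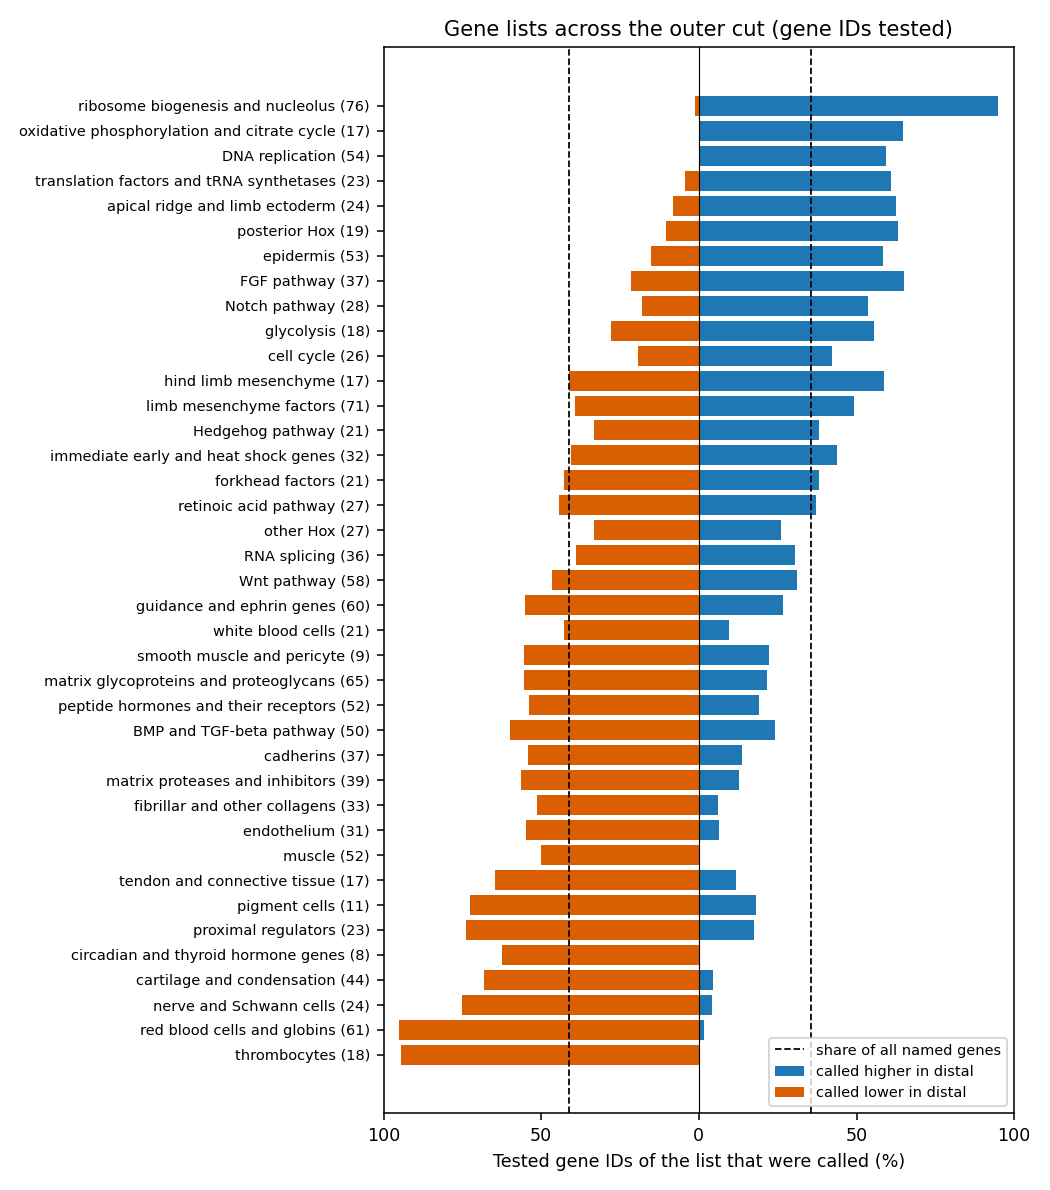
Share of each list's tested gene IDs called higher (blue, to the right) or lower (orange, to the left) in distal, in percent, for the lists with 8 or more IDs tested; the number tested is in parentheses and dashed lines mark the shares over all named genes (35.6% higher, 41.1% lower). Ribosome biogenesis has the highest share of rises, and thrombocyte and red blood cell genes have the highest shares of falls.

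Guidance and ephrin genes, which steer growing axons and vessels and sort cells, were lower in 33 and higher in 16 of 60 IDs. epha4.L, an ephrin receptor, was at 160.5 and 141 CPM in medial and 511 and 543 CPM in distal, a log2 fold change of 1.81 ± 0.10 (adjusted p = 4.7e-07). unc5b.L, a netrin receptor, rose (5.94 and 4.54 CPM against 17.2 and 20.7 CPM, a log2 fold change of 1.85 ± 0.16 (adjusted p = 9.9e-06)), and so did the semaphorin receptor plxnd1.L (21.1 and 17.8 CPM against 50.1 and 48.8 CPM, a log2 fold change of 1.35 ± 0.11 (adjusted p = 5.3e-06)). nrp1.S, a receptor of semaphorins and VEGF, fell (35.1 and 32.5 CPM against 7.84 and 7.43 CPM, a log2 fold change of -2.14 ± 0.11 (adjusted p = 2.1e-07)). The netrin gene ntn1.S fell (24.4 and 19.5 CPM against 3.84 and 3.98 CPM, a log2 fold change of -2.49 ± 0.14 (adjusted p = 4.4e-07)), with exons that overlap another gene ID. The netrin receptor dcc.S had no count in the distal pools and 0.624 and 0.581 CPM in the medial pools, at least 2.97-fold lower (adjusted p = 0.0017).

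Cadherins, the homophilic adhesion molecules, fell in 20 and rose in 5 of 37 IDs (3 without distal pool 1). The rises were led by both copies of cdh20, cdh20.S at 1.72 and 1.09 CPM in medial and 19.7 and 22.1 CPM in distal, a log2 fold change of 3.88 ± 0.23 (adjusted p = 6.4e-07). cdh20.L was at 1.06 and 1.16 CPM in medial and 10.9 and 9.32 CPM in distal, a log2 fold change of 3.19 ± 0.21 (adjusted p = 1.3e-06). The protocadherin pcdh9.L fell from 25.8 and 24.2 to 3.05 and 2.5 CPM, a log2 fold change of -3.14 ± 0.16 (adjusted p = 1.8e-07).

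Peptide hormones and their receptors were lower in 28 and higher in 10 of 52 IDs. nmu.S, which encodes neuromedin U, was at 1.91 and 3.08 CPM in the medial pools and had no count in the distal pools, at least 12.3-fold lower (adjusted p = 4.4e-05). fshr.L, the receptor of follicle-stimulating hormone, was at 1.43 and 1.05 CPM against no count, at least 6.13-fold lower (adjusted p = 0.00014). vipr1.S, a receptor of vasoactive intestinal peptide, fell (8.51 and 12.2 CPM against 0.417 and 0.27 CPM, a log2 fold change of -4.83 ± 0.34 (adjusted p = 3.3e-06)). pnoc.L, the prepronociceptin gene, rose (0.147 and 0.0363 CPM against 2.75 and 3.31 CPM, a log2 fold change of 4.96 ± 0.48 (adjusted p = 4e-05)), with 6.17 and 4.304 without medial pool 1 or 2. igfbp2.L, an IGF binding protein, was at 1921 and 2136 CPM in medial and 1736 and 1709.8 CPM in distal and was not called (adjusted p = 0.16).

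Markers of the apical ridge and limb ectoderm were higher in 15 of 24 IDs and lower in 2. Their summed level was 426 and 360.4 CPM in the medial pools and 782 and 817 CPM in the distal pools. Those called lower were sp9.L (12.2 and 11.1 CPM against 2.75 and 3.24 CPM, a log2 fold change of -1.98 ± 0.20 (adjusted p = 2.6e-05)) and dlx5.L (23.5 and 30 CPM against 16.6 and 15.1 CPM, a log2 fold change of -0.75 ± 0.14 (adjusted p = 0.0019)), transcription factors known from the ridge in other vertebrates. The list member wnt7a.S had a fitted log2 fold change of -4.42 but was not called. Epidermal genes were higher in 31 of 53 IDs and lower in 8, and how many were called depended on the library left out. Their summed level was 2423 and 1459.7 CPM in the medial pools and 3119.9 and 3252 CPM in the distal pools, with medial pool 2 lowest. grhl3.S, a factor of epidermal barrier formation, was at 7.3 and 4.46 CPM in medial and 24.4 and 23.8 CPM in distal, a log2 fold change of 2.04 ± 0.20 (adjusted p = 4.3e-05). itln1.S, an intelectin, was at 23.4 and 14.6 CPM in medial and 51.4 and 53.4 CPM in distal, a log2 fold change of 1.46 ± 0.19 (adjusted p = 0.0012). The keratin gene krt78.2.S fell (18.3 and 13.7 CPM against 4.46 and 5.07 CPM, a log2 fold change of -1.76 ± 0.17 (adjusted p = 1.8e-05)).

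Cartilage genes were lower at the tip, 30 of 44 IDs against 2 higher, with a median of -0.97. Their summed level was 2583 and 2847 CPM in the medial pools and 1725 and 1707 CPM in the distal pools. sox9.L, the master factor of cartilage, was at 145 and 218 CPM in medial and 78.1 and 74.6 CPM in distal, a log2 fold change of -1.25 ± 0.18 (adjusted p = 0.0016). acan.L, the aggrecan core protein, fell from 10.5 and 9.83 to 2 and 1.08 CPM, a log2 fold change of -2.64 ± 0.23 (adjusted p = 8.1e-06). col2a1.L, the cartilage collagen, was at 288 and 343 CPM in medial and 214 and 222 CPM in distal, a smaller log2 fold change of -0.53 ± 0.12 (adjusted p = 0.0076), and its call ended without a distal pool (adjusted p 0.099 and 0.059). The rises were sp7.L, a factor of bone formation (0.88 and 0.581 CPM against 7.64 and 7.36 CPM, a log2 fold change of 3.35 ± 0.26 (adjusted p = 4.1e-06)), and pth1r.S (0.11 and 0.181 CPM against 0.96 and 1.35 CPM, a log2 fold change of 2.904 ± 0.49 (adjusted p = 0.0013)), whose exons overlap another gene ID (4 rises without medial pool 1). col11a1.L was not called (304 and 223 CPM against 319 and 333 CPM, adjusted p = 0.13). Its log2 fold change was 0.31, with 0.34 and 0.26 without distal pool 1 or 2, and whether it passed depended on the library left out.

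Muscle genes were called lower in 26 of 52 IDs and higher in none by edgeR, with a median of -0.99 (-0.96 with genes without a distal count at their bound). DESeq2 called 3 higher and limma-voom 0, and at an unadjusted p under 0.05 edgeR had 2. Without distal pool 2, 3 were higher, and without proximal pool 1, 1. Their summed level was 327 and 341 CPM in the medial pools and 243 and 191 CPM in the distal pools. pax7.L, a marker of muscle stem cells, had no count at the tip and 0.477 and 0.363 CPM in the medial pools, at least 2.07-fold lower. myog.S, the myogenic factor myogenin, had none either, at 0.33 and 0.508 CPM in the medial pools and at least 2.07-fold lower. Both are low genes, with adjusted p-values of 0.00404 and 0.0042, and 0.051 and 0.053 without distal pool 1.

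Tendon and connective tissue genes fell in 11 of 17 IDs and rose in 2. The rises were the copies of thbs4, and the tendon factor scx.S was not called (63.5 and 83.1 CPM against 65.3 and 56.4 CPM, adjusted p = 0.18). The log2 fold change of scx.S was -0.27, with -0.38 and -0.18 without distal pool 1 or 2, and whether it passed depended on the library left out. Smooth muscle and pericyte genes fell in 5 of 9 IDs. rgs5.L, a pericyte gene, was at 11.7 and 15.9 CPM against 1.59 and 1.89 CPM (a log2 fold change of -3.01 ± 0.20 (adjusted p = 1.4e-06)), and myh11.S, smooth muscle myosin, at 32 and 30.3 CPM against 4.92 and 4.19 CPM (a log2 fold change of -2.75 ± 0.12 (adjusted p = 9.3e-08)). myocd.L, the smooth muscle coactivator myocardin, was at 1.39 and 1.23 CPM against no count, at least 6.48-fold lower (adjusted p = 0.00011). kcnj8.S, a potassium channel, rose (4.07 and 3.99 CPM against 8.59 and 6.89 CPM, a log2 fold change of 0.95 ± 0.17 (adjusted p = 0.0019)), but not without distal pool 1 (0.055), where 0 of the list were called higher instead of 2.

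Endothelial genes fell in 17 of 31 IDs and rose in 2, or 1 without medial pool 2 or either distal pool. lyve1.L, a lymphatic and macrophage marker, was at 1.8 and 2.03 CPM in medial and 0.0417 and 0 CPM in distal, a ratio of 74.3 (95% counting interval 13 to 2961) (adjusted p = 3.9e-05). tal1.L, which is also on the red blood cell list, was at 18.4 and 26 CPM in medial and 1.21 and 1.08 CPM in distal, a log2 fold change of -4.26 ± 0.33 (adjusted p = 5.6e-05). cd34.S, a surface protein of vessels, was not called (94 and 93.4 CPM against 110.1 and 104 CPM, adjusted p = 0.16). egfl7.L, a secreted vessel protein, rose (11.9 and 10.3 CPM against 32.1 and 33.4 CPM, a log2 fold change of 1.56 ± 0.11 (adjusted p = 1.9e-06)), with exons that overlap another gene ID.

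Nerve and Schwann cell genes fell in 18 of 24 IDs, with a median of -1.96 and a summed level of 217 and 209 CPM in the medial pools and 87.1 and 93.7 CPM in the distal pools. sox10.L, the neural crest factor of glia and pigment cells, was at 6.42 and 4.21 CPM in medial and 0.125 and 0.27 CPM in distal, a log2 fold change of -4.83 ± 0.41 (adjusted p = 7.8e-06). cdh19.S, a Schwann cell cadherin, was at 9.54 and 5.52 CPM in medial and 0.25 and 0.0675 CPM in distal, a log2 fold change of -5.35 ± 0.47 (adjusted p = 3.4e-05) (-6.69 without distal pool 1). The single rise was prph.L, the neuronal filament peripherin (3.67 and 4.28 CPM against 6.59 and 7.23 CPM, a log2 fold change of 0.79 ± 0.17 (adjusted p = 0.0062)), which was not called without distal pool 2 (0.063). Pigment cell genes, which include sox10.L, fell in 8 of 11 IDs and rose in 2 (1 without medial pool 2 or distal pool 1). ednrb2.S, a receptor of pigment cell precursors, fell (4.59 and 2.54 CPM against 0.626 and 0.135 CPM, a log2 fold change of -3.03 ± 0.48 (adjusted p = 0.0018), and -4.67 without distal pool 1), while oca2.L, a melanosome protein, rose (3.12 and 2.72 CPM against 7.64 and 7.16 CPM, a log2 fold change of 1.34 ± 0.21 (adjusted p = 0.00071)).

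Genes of the extracellular matrix were lower at the tip. Of 33 collagen IDs 17 were lower and 2 higher, of 65 glycoproteins and proteoglycans 36 and 14, and of 39 proteases and inhibitors 22 and 5. The number of higher proteases and inhibitors was 1, 2 and 3 without distal pool 1, distal pool 2 and medial pool 2. The abundant type I collagen genes were not called: col1a2.L was at 3049 and 2418 CPM in medial and 2079 and 2086 CPM in distal (adjusted p = 0.054) and col1a1.S at 2725 and 2142 CPM in medial and 1927 and 1946 CPM in distal (adjusted p = 0.11). Both were lower in distal, with log2 fold changes of -0.39 and -0.33. In the fit of 4 libraries col1a2.L passed (0.026) and col1a1.S did not (0.055). Without distal pool 1 the log2 fold changes were -0.39 and -0.32, and without distal pool 2 -0.40 and -0.35. Whether either gene passed depended on the library left out. Less abundant collagens fell further, col20a1.L from 22.7 and 14.3 to 0.876 and 0.135 CPM, a log2 fold change of -4.97 ± 0.47 (adjusted p = 0.00074) (-7.04 without distal pool 1), and col26a1.S from 15.3 and 13.9 to 1.08 and 1.55 CPM, a log2 fold change of -3.51 ± 0.19 (adjusted p = 3.2e-07). col8a1.L, a network-forming collagen, rose (0.807 and 0.363 CPM against 5.84 and 6.48 CPM, a log2 fold change of 3.38 ± 0.30 (adjusted p = 1e-05), and 4.06 without medial pool 1).

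Among the glycoproteins, bgn.S, the proteoglycan biglycan, rose from 323 and 242 to 1436 and 1461 CPM, a log2 fold change of 2.36 ± 0.19 (adjusted p = 3e-05). thbs4.L rose with its copy (3.81 and 2.43 CPM against 42.4 and 36.9 CPM, a log2 fold change of 3.67 ± 0.19 (adjusted p = 6.4e-07)). fbln5.S, an elastic fibre protein, fell (5.61 and 6.13 CPM against 0.167 and 0.203 CPM, a log2 fold change of -4.98 ± 0.31 (adjusted p = 8.7e-07)). ogn.L, the proteoglycan osteoglycin, changed in the same direction (32.5 and 20.5 CPM against 1.92 and 0.675 CPM, a log2 fold change of -4.21 ± 0.42 (adjusted p = 0.0014), and -5.28 without distal pool 1). Among proteases, plat.L, tissue plasminogen activator, was at 48.1 and 59.6 CPM in medial and 4.34 and 2.36 CPM in distal, a log2 fold change of -3.94 ± 0.22 (adjusted p = 4.6e-06). mmp23b.S fell (12.7 and 13.2 CPM against 1.08 and 1.89 CPM, a log2 fold change of -3.197 ± 0.18 (adjusted p = 4.8e-07)), and adamts15.S fell (7.85 and 7.15 CPM against 0.751 and 1.15 CPM, a log2 fold change of -3.03 ± 0.25 (adjusted p = 6.6e-06)). mmp3.L, a stromelysin, rose (16 and 6.24 CPM against 67.4 and 73.6 CPM, a log2 fold change of 2.66 ± 0.50 (adjusted p = 0.031)), a call that ended without distal pool 1 (0.102), distal pool 2 (0.11), proximal pool 1 (0.073) or proximal pool 2 (0.0701), with a log2 fold change of 3.496 without medial pool 1.

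**Figure D4:**
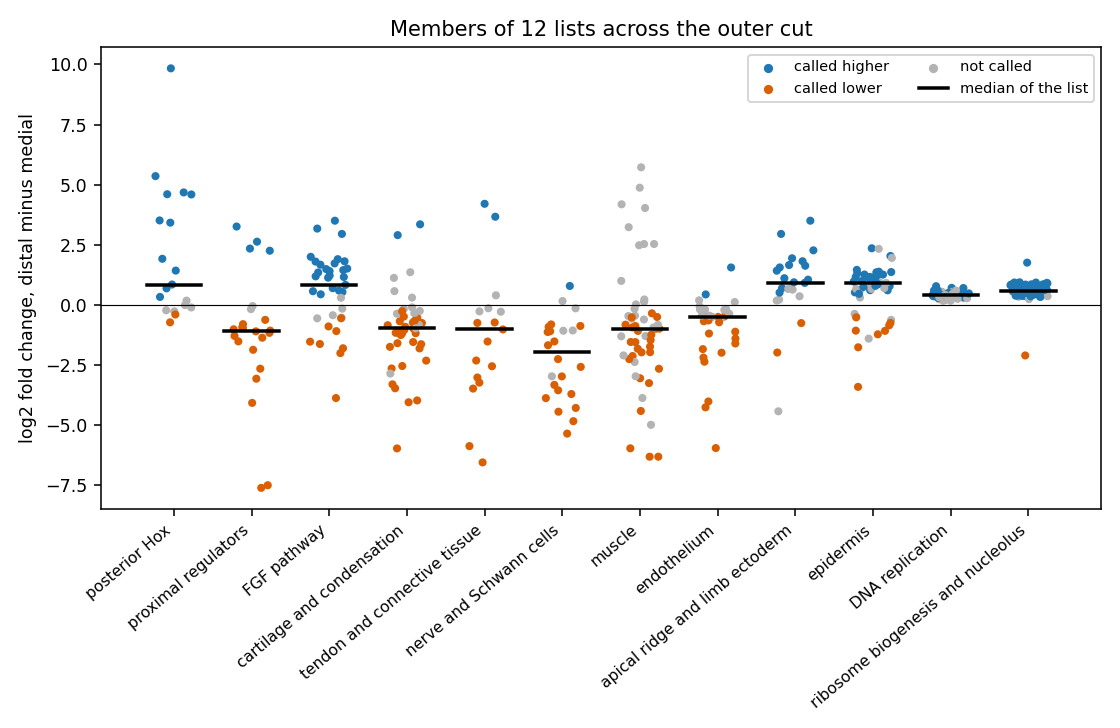
Log2 fold change, distal minus medial (y axis), of each tested member of 12 lists (x axis), coloured by call, with the median of each list as a bar. Most ribosome biogenesis genes, median 0.59, form a narrow group above 0, with mycn.S (1.76) above it and myc.S (-2.098) below 0, while nerve and muscle genes spread widely.

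Genes of ribosome biogenesis and the nucleolus rose almost as a block, most by a small amount. The list includes the Myc transcription factor genes, among them mycn.S with a larger rise and myc.S, the single fall. Of 76 IDs 72 were higher and 1 lower, with a median of 0.59. Fewer were called without either distal pool, where the median was 0.63 without pool 1 and 0.54 without pool 2. A test against a fold of 1.5 was passed by 10 IDs. Their summed level was 4693 and 4933 CPM in the medial pools and 6788 and 7111 CPM in the distal pools. fbl.S, the nucleolar methyltransferase fibrillarin, was at 29.5 and 31.4 CPM in medial and 52.2 and 58.2 CPM in distal, a log2 fold change of 0.86 ± 0.10 (adjusted p = 7.9e-05). gar1.S, of the snoRNP particles that modify ribosomal RNA, was at 22 and 22.5 CPM in medial and 43.4 and 41.9 CPM in distal, a log2 fold change of 0.94 ± 0.09 (adjusted p = 2.1e-05). polr1a.L, the large subunit of RNA polymerase I, was at 17 and 20.4 CPM in medial and 35.2 and 36.2 CPM in distal, a log2 fold change of 0.93 ± 0.11 (adjusted p = 0.000103), with exons that overlap another gene ID. npm1.L, nucleophosmin, was not called (1008 and 971 CPM against 1250.3 and 1300.1 CPM, adjusted p = 0.051), though it was in the fit of 4 libraries (0.011). Its log2 fold change was 0.37, with 0.39 and 0.33 without distal pool 1 or 2, and whether it passed depended on the library left out.

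The Myc transcription factors, which are on this list and drive the programme in many growing tissues, went opposite ways. mycn.S was at 69.1 and 67.7 CPM in medial and 228 and 236 CPM in distal, a log2 fold change of 1.76 ± 0.09 (adjusted p = 2.1e-07). mycn.L was at 43.2 and 54.1 CPM in medial and 88 and 98.1 CPM in distal, a log2 fold change of 0.93 ± 0.12 (adjusted p = 0.00014). myc.S was at 45 and 54.9 CPM in medial and 13.1 and 9.86 CPM in distal, a log2 fold change of -2.098 ± 0.16 (adjusted p = 7.5e-06). The groups did not overlap for any of them, which also held for 65.2% of all genes tested.

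DNA replication genes were higher in 32 of 54 IDs and lower in none by edgeR, with a median of 0.41. At an unadjusted p under 0.05, 44 were higher and 0 lower, and DESeq2 and limma-voom called 17 and 35 higher and 0 lower. How many were called depended on the library left out. The median was 0.39 and 0.42 without distal pool 1 or 2, and 0.29 and 0.54 without medial pool 1 or 2. The summed level was 2173 and 2618 CPM in the medial pools and 3162 and 3169.7 CPM in the distal pools, and medial pool 2 was above medial pool 1. pold1.L, the catalytic subunit of DNA polymerase delta, was at 26.9 and 32.2 CPM in medial and 48.4 and 48.6 CPM in distal, a log2 fold change of 0.71 ± 0.11 (adjusted p = 0.0007). cdc6.S, a licensing factor, had a log2 fold change of 0.78 (adjusted p = 0.017), which was not called without distal pool 1 (0.0895) or 2 (0.11). pcna.S, the polymerase clamp (141 and 149 CPM against 178 and 175 CPM, adjusted p = 0.057), and mcm7.L, of the replicative helicase (127 and 174 CPM against 204 and 209 CPM, adjusted p = 0.099), were not called. In the fit of 4 libraries pcna.S passed (0.042) and mcm7.L did not (0.063). Their log2 fold changes were 0.28 and 0.46, with 0.27 and 0.47 without distal pool 1 and 0.29 and 0.43 without distal pool 2. Whether either gene passed depended on the library left out.

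Cell cycle genes changed in both directions. Of 26 IDs 11 were higher and 5 lower, with 2, 5 and 7 higher without distal pool 1, distal pool 2 and medial pool 1, and 3, 2 and 3 lower without distal pool 1, distal pool 2 and medial pool 2. top2a.L, a topoisomerase of dividing cells, was at 435 and 468 CPM in medial and 477 and 464 CPM in distal, and these values overlapped (adjusted p = 0.71). The kinase cdk4.S (25.2 and 29.2 CPM against 42.6 and 46.1 CPM, a log2 fold change of 0.70 ± 0.10 (adjusted p = 0.00049)) and the factor e2f3.S (18.6 and 22.9 CPM against 32.7 and 32.7 CPM, a log2 fold change of 0.65 ± 0.12 (adjusted p = 0.0021)) rose. ccnd2.S, cyclin D2 (69.6 and 64 CPM against 36.2 and 34.9 CPM, a log2 fold change of -0.91 ± 0.10 (adjusted p = 6.5e-05)), and the inhibitor cdkn2c.L (24.2 and 29.4 CPM against 12.7 and 9.25 CPM, a log2 fold change of -1.27 ± 0.16 (adjusted p = 0.00034)) fell.

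Translation factors and tRNA synthetases were higher in 14 of 23 IDs, a count that depended on the library left out. eif4a3.S, a helicase of the exon junction complex, rose (21.6 and 22 CPM against 37 and 30.3 CPM, adjusted p = 0.014, and 0.14 without distal pool 1). The single fall, eif3m.S (250.3 and 239 CPM against 189.7 and 203 CPM, adjusted p = 0.027), was not called without medial pool 1 (0.089), distal pool 1 (0.26) or distal pool 2 (0.103). RNA splicing genes were split, 11 of 36 higher and 14 lower. Without distal pool 1 these were 1 and 1, without distal pool 2 4 and 6, 7 higher without medial pool 1 and 8 lower without medial pool 2. snrpg.S, a core protein of the spliceosome, rose (57.7 and 59.2 CPM against 89.6 and 81.5 CPM, a log2 fold change of 0.55 ± 0.09 (adjusted p = 0.0011)), and clk1.L, a kinase of splicing factors, fell (126 and 132 CPM against 74.1 and 90.3 CPM, a log2 fold change of -0.65 ± 0.11 (adjusted p = 0.00104)). clk2.L, a related kinase with exons that overlap another gene ID, fell by a log2 fold change of -0.62 (adjusted p = 0.0025, and 0.058 without distal pool 1).

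Genes of oxidative phosphorylation and the citrate cycle were higher in 11 of 17 IDs and lower in none by edgeR (0 also at an unadjusted p under 0.05, by DESeq2 and by limma-voom), with 1, 6 and 5 without distal pool 1, distal pool 2 and medial pool 2. mdh1.S, malate dehydrogenase, was at 44.5 and 44.2 CPM in medial and 66.1 and 61.9 CPM in distal, a log2 fold change of 0.53 ± 0.09 (adjusted p = 0.0013). slc25a4.L, an ATP and ADP carrier of muscle mitochondria, had no count in the medial pools but was at 0.751 CPM in distal pool 1 and 0.0675 CPM in distal pool 2. Its call (adjusted p = 0.023) ended without distal pool 1 (0.31), proximal pool 1 (0.064) or proximal pool 2 (0.054). Glycolysis genes were higher in 10 of 18 IDs (4 and 6 without distal pool 1 or 2) and lower in 5. slc2a3.L, a glucose transporter, fell (2.93 and 3.16 CPM against 0.167 and 0.135 CPM, a log2 fold change of -4.25 ± 0.36 (adjusted p = 7.7e-06)). pfkfb3.S, which makes an activator of phosphofructokinase, changed in the same direction (5.94 and 8.53 CPM against 1.92 and 2.23 CPM, a log2 fold change of -1.82 ± 0.24 (adjusted p = 0.000203)). hk2.L, a hexokinase, rose (3.34 and 2.98 CPM against 4.88 and 6.62 CPM, adjusted p = 0.014), but not without distal pool 2 (0.16).

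Immediate early and heat shock genes, which respond quickly to stimuli and stress, changed in both directions. Beside 35.6% higher and 41.1% lower of all named IDs, 14 of 32 were higher and 13 lower. Without distal pool 1 or 2 these were 7 and 7 in either case, and 9 were higher without medial pool 2. ier2.L rose (13.1 and 12.7 CPM against 26.3 and 29 CPM, a log2 fold change of 1.099 ± 0.14 (adjusted p = 0.00015)). In contrast, jun.S (24.2 and 30.6 CPM against 10.8 and 8.37 CPM, a log2 fold change of -1.496 ± 0.15 (adjusted p = 2.8e-05)) and zfp36.L (26.4 and 29.3 CPM against 11.8 and 12.2 CPM, a log2 fold change of -1.22 ± 0.12 (adjusted p = 1.9e-05)) fell. Of 8 circadian and thyroid hormone IDs 5 were lower and none higher by edgeR, DESeq2 or limma-voom, with 1 higher at an unadjusted p under 0.05 (3 lower without distal pool 1). crym.S, a protein that binds thyroid hormone, was at 57.1 and 56.7 CPM in medial and 28.9 and 22.4 CPM in distal, a log2 fold change of -1.14 ± 0.12 (adjusted p = 3.4e-05). Of 4 IDs of cholesterol synthesis, 2 were higher and 1 lower, or 1 and 0 without either distal pool.

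Families were also formed from the letters of the gene symbols, which gave 21 families with 15 or more named IDs and 573 IDs in all. The highest shares of rises were in polr, the RNA polymerase subunits (15 of 17), wdr, the WD repeat proteins (16 of 20), and ddx, the DEAD-box helicases (13 of 18). These overlap with the ribosome biogenesis list, as in wdr12.S (log2 fold change 0.92, adjusted p = 0.012, and 0.11 without distal pool 2). The largest ddx rise was ddx58.L, which encodes the RNA sensor RIG-I and not a ribosome factor (4.07 and 3.88 CPM against 8.68 and 6.42 CPM, adjusted p = 0.0054, and 0.12 without distal pool 1). Then followed cyp, the cytochromes P450 (11 of 17), atp, the ATPase and ATP synthase genes (19 of 31), and ppp, the protein phosphatase subunits (10 of 17). The highest shares of falls were in sox, the SRY-related factors (14 of 17, median -1.04), and col, the collagens (28 of 46, median -0.68). The single sox rise was sox15.L (18.1 and 16.8 CPM against 24.9 and 21.7 CPM, adjusted p = 0.015), which was not called without medial pool 2 (0.063) or distal pool 1 (0.22). adamts and arhgap followed with 10 of 19 each, sema with 13 of 25, and slc, the solute carriers, with 49 of 100.

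Blood genes were far lower at the tip, and they are included in the counts of falls of 2-fold and 8-fold or more given for all genes. The 18 globin IDs took 6.13% and 7.21% of assigned fragments in the medial pools and 0.301% and 0.151% in the distal pools. In the proximal pools the share was 3.46% and 4.85%, so the medial segment was highest. Of the 18 globin IDs 17 were called lower, with a median of -4.97, and of the other 49 blood IDs 46 were lower and 1 higher. hba4.S, an alpha globin, was at 5371 and 6511 CPM in medial and 224 and 113 CPM in distal, a log2 fold change of -5.13 ± 0.38 (adjusted p = 0.00022). hbg2.L was at 5525 and 6894 CPM in medial and 228 and 130.0 CPM in distal, a log2 fold change of -5.11 ± 0.33 (adjusted p = 5.7e-05). Near-identical globin copies may share fragments, so single globin values are uncertain. rhag.S, a red cell membrane channel, was at 19.2 and 22.1 CPM in medial and 0.542 and 0.203 CPM in distal, a log2 fold change of -5.63 ± 0.26 (adjusted p = 1.1e-07), and sptb.L, red cell spectrin with exons that overlap another gene ID, was at 146 and 166 CPM in medial and 6.55 and 2.57 CPM in distal, a log2 fold change of -5.005 ± 0.42 (adjusted p = 0.0014). Without distal pool 1 these came to -6.63 and -5.92. The exception was aqp1.L, the water channel of red cells, vessels and other epithelia (44.3 and 48 CPM against 63.5 and 62.2 CPM, a log2 fold change of 0.45 ± 0.09 (adjusted p = 0.0043), and adjusted p = 0.062 without distal pool 1).

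**Figure D5:**
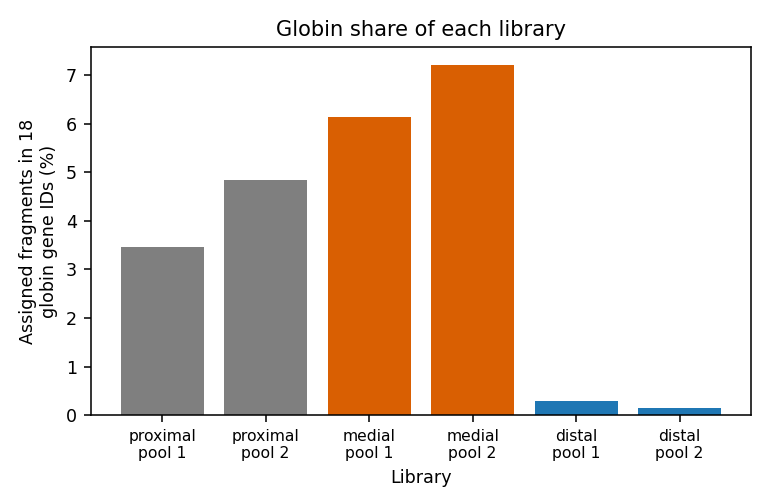
Share of assigned fragments in 18 globin gene IDs (y axis, percent) in each library (x axis). The distal pools, at 0.301% and 0.151%, lie far below the medial pools, at 6.13% and 7.21%, and the proximal pools, at 3.46% and 4.85%.

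Thrombocyte genes followed the red cell genes, with 17 of 18 IDs lower and a median of -3.09. gp1bb.L, a platelet adhesion receptor, was at 8.18 and 8.46 CPM in medial and 0.375 and 0.135 CPM in distal, a log2 fold change of -4.86 ± 0.30 (adjusted p = 7.3e-07) (-5.89 without distal pool 1), and mpl.L, the thrombopoietin receptor, at 4.7 and 4.65 CPM in medial and 0.209 and 0.203 CPM in distal, a log2 fold change of -4.47 ± 0.31 (adjusted p = 1.8e-06). The member not called was f5.L, coagulation factor V (20.1 and 18.2 CPM against 20.7 and 26.1 CPM, adjusted p = 0.17). White blood cell genes fell in 9 of 21 IDs and rose in 2, where 41.1% of all named IDs fell and 35.6% rose. Without distal pool 1 or 2, 5 fell and 0 rose, and 1 rose without medial pool 2. Their summed level was 92.8 and 79.3 CPM in the medial pools and 78.4 and 68 CPM in the distal pools. mpo.L, myeloperoxidase, fell (6.13 and 6.9 CPM against 1.5 and 0.743 CPM, a log2 fold change of -2.45 ± 0.29 (adjusted p = 0.00013)). cd4.L changed in the same direction (1.72 and 2 CPM against 0.334 and 0.135 CPM, a log2 fold change of -2.84 ± 0.41 (adjusted p = 0.00042)), with -3.12 and -3.73 without distal pool 1. ctss.L, a lysosomal protease of macrophages, rose (5.32 and 3.23 CPM against 8.47 and 8.04 CPM, adjusted p = 0.037), but not without distal pool 1 (0.198), distal pool 2 (0.13) or medial pool 2 (0.0799). Leaving the blood genes out of the scaling kept 6572 of the 6753 calls and moved the median of all genes by -0.015.

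Whether the outer step (distal over medial) differed from the inner step (medial over proximal) was tested in the same fit, and 2629 of 27007 genes (9.73%) passed, among them 2418 named IDs (35% of those named). Both steps share the medial pools, so a high medial value alone moves them apart. The lists with the highest shares were red blood cells (59 of 61) and hind limb mesenchyme (15 of 17). In posterior Hox genes 12 of 19 passed. In ribosome biogenesis 20 of 76 IDs passed.

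Single genes show how the steps differed. hoxa11.L had an inner step of 1.94 and an outer step of -0.27 (step difference adjusted p = 1.4e-05). hoxa13.L had -0.52 and 4.59 (0.016), hes1.L -0.20 and 2.52 (4.7e-06), and mycn.S -0.49 and 1.76 (6.2e-06). In the last 3 the outer step was the larger rise. Of the proximal markers, meis2.L fell more at the inner step (-2.06 against -1.07, 0.0033) and meis2.S more at the outer step (-1.82 against the ratio given above, 3e-05). emx2.L fell at the inner step (-5.72) and rose at the outer one (3.26, 1.5e-06). dkk1.S rose at both, by 2.62 and 2.97, with no detectable difference between its steps (adjusted p = 0.87). Of the 27 retinoic acid IDs 11 passed the test of the steps, beside 35% of all named IDs.

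Where both the L and the S copy of a gene were called across the outer cut, they mostly changed the same way. Of 1189 pairs with both copies named and tested, 791 had both copies called, 726 of them the same way and 65 opposite ways. Names came only from the authors' significant comparisons, and over all named IDs tested 35.6% were called higher and 41.1% lower. In 299 pairs only 1 copy was called, and whether the copies differ from each other was not tested. Of the pairs called opposite ways, htra3, a secreted protease gene, had the widest gap between fitted values. This rank is not firm, as the fitted value of htra3.S rests on very few distal counts. htra3.L rose (1.36 and 1.16 CPM against 6.01 and 4.59 CPM, a log2 fold change of 2.08 ± 0.24 (adjusted p = 8e-05)). In contrast, htra3.S was at 0.587 and 1.31 CPM against 0.0417 and 0 CPM, a ratio of medial over distal of 36.8 (95% counting interval 6.32 to 1480.4) (adjusted p = 0.0019). The membrane glycoprotein gene gpm6a was another, with gpm6a.L at 4.11 and 2 CPM against 41.5 and 40.5 CPM (a log2 fold change of 3.75 ± 0.25 (adjusted p = 2.3e-05), and 4.36 without medial pool 1) and gpm6a.S at 2.71 and 2.9 CPM against 0.501 and 0.608 CPM (a log2 fold change of -2.36 ± 0.29 (adjusted p = 0.00013)). In the authors' deposited table, 4666 gene IDs were significant between medial and distal, and 4553 of them were called here with the same sign.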

How the data were processed

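RNA was measured in 6 libraries, 2 pools of 30 hind limb segments each from the proximal, medial and distal segment. The deposited count table holds raw fragment counts per gene from featureCounts 2.0.1 in paired-end mode, without strand and without multi-mapping fragments, per the file headers; gene lengths in it are other values as deposited. Alignment with HISAT2 2.2.1 after Trimmomatic 0.39 is named in the submitters' processing notes, and the genome build is not given in the sources used here. Counts of fragments by assignment category are in another deposited table. The authors' deposited table of comparisons gives log2 fold changes and adjusted p-values (DESeq2 1.30.1 in the submitters' notes), and is the only source of gene names used.

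Low genes were removed by segment with edgeR's filterByExpr (count minimum 10, total minimum 15). TMM factors scaled the rest, and edgeR 4.0.16 under R 4.3.3 gave the tests (robust quasi-likelihood F test, all 6 libraries, segment as the only factor, 3 residual degrees of freedom, Benjamini-Hochberg adjustment over 27007 gene IDs). The standard error of a log2 fold change is its size over the square root of F. Where the lower segment had no count, the fold is a lower bound against the highest floor of 3 counts per library. Where none of its libraries exceeded 3 counts, the ratio of pooled counts has an exact 95% Clopper-Pearson interval. List medians moved by at most 0.032 with genes at their bound. The procedure was tested on simulated data: of genes changed 1.5-fold, 2-fold, 4-fold and 8-fold, 46%, 80%, 100% and 100% were called, and 27 of 190 calls were unchanged genes.

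Members and lists were chosen with earlier results of these data known. By the naming rule, from whose genes the text takes its examples, they are the 12 largest rises and falls at 10 CPM or more with pools that do not overlap, the 5 largest changes of blood genes, and per list up to 3 rises, 3 falls and 2 members not called with the highest level. One globin ID with a repeated symbol is not printed, and a few genes are not reported here. Named after their values were seen were pitx1.L, mylpf.L, mylpf.S, tnnc2.L, shh.L, hoxd13.L, hoxa10.S, spry1.L, spry4.S, dusp6.L, fgf10.L, fgf10.S, frzb.L, irx3.S, aldh1a2.S, cyp26b1.S, wnt5a.L, polr1a.L, wdr12.S, ddx58.L, sox15.L, jag1.L, ptch1.L, sox9.L, col2a1.L, acan.L, fbl.S, crabp2.L, grem1.L, bambi.S and the L and S pairs of htra3 and gpm6a. Of 6912 named IDs tested, 716 have an exon that overlaps another gene ID. The pools of a segment are not repeats of one library (chi-square per degree of freedom 13.4 for medial and 3.03 for distal). Alternatives were other scalings and filters, DESeq2 1.42.0, limma-voom (limma 3.58.1), a non-robust fit, a fit of 4 libraries, a replicate block and leaving out each library.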

Additional observations from a re-analysis of the deposited data

Results flagged for a closer look

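Fragments that mapped to several places were left out of the counts by the authors, so they are signal outside the main measurement. They made up 6.62% and 7.05% of fragments in medial pools 1 and 2 and 5.51% and 5.56% in distal pools 1 and 2. Both medial pools lay above both distal pools. With 2 pools against 2 an exact test cannot pass, and none was run. Which genes these fragments came from was not analysed here.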

How the results depend on the processing

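Each segment had 2 pools, and distal pool 2 was the shallowest of the libraries compared. A test against a fold of 1.5 called 2211 genes, 740 higher and 1471 lower, and 1394 step differences. DESeq2 called 2115 genes higher. When each library was left out in turn, between 3188 and 6713 genes were called, 1339 to 3533 higher and 1849 to 3577 lower, and 1552 to 3206 step differences passed, the lowest counts without distal pool 1. Under the other settings run, the counts of genes called, higher and lower stayed within 1.5 times those given. No gene called under both settings changed sign in any alternative. Of the genes named, 3 changed sign, and none of them was called in the fit used for the results above. With a library left out, mylpf.S lay between -0.69 and 3.23 and tnnc2.L between -0.65 and 3.97. Both were lowest without distal pool 1 and highest without distal pool 2, where mylpf.S passed. boc.S lay between -0.27 without medial pool 1 and 0.015 without medial pool 2.

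Samples 1 and 2 are titled Black and Red in every segment, what the colours stand for is not stated, and deviations from the segment means correlated across genes at 0.0544 between same-numbered medial and distal pools, 0.203 between proximal and medial and 0.0251 between proximal and distal. Under the replicate block, which adds the pool number to the fit, 7864 genes passed (3920 up, 3944 down), of which 6706 were shared with the fit without it, and 3515 step differences passed. DNA replication genes called higher then numbered 48, and 1 muscle gene and 1 circadian or thyroid hormone gene were called higher. Of the genes named, st8sia6.S (adjusted p = 0.057), cyp26c1.S (0.0596) and mmp3.L (0.065) were not called under the block, and mcm7.L (0.00395), npm1.L (0.021), col1a2.L (0.0257) and pcna.S (0.0299) were; it changed no other call of a named gene. The step difference could not be recomputed with the 4 libraries alone, which hold no proximal pool.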
